A study of Mus musculus with 8 samples.

Results

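The MYC, MAX and MLX network is a family of basic helix-loop-helix leucine zipper transcription factors, and its transcripts were measured in R1 mESCs, a wild-type mouse embryonic stem cell line, after knockdown (KD) of *Eftud2*, which encodes a GTPase of the U5 snRNP of the spliceosome. The 10 genes described here, *Myc*, *Mycn*, *Mycl*, *Max*, *Mxd3*, *Mxi1*, *Mnt*, *Mga*, *Mlx* and *Mlxip*, were taken by name from the 55385 genes of the deposited count table, by a rule that uses no measured value, although earlier results of these data were known. All 10 passed the filter on low counts and were among the 17445 genes tested. The experiment held 8 RNA-seq libraries, 3 with shRNA1, which targets the 3′ UTR of *Eftud2*, 3 with shRNA2, which targets its coding sequence, and 2 with nt-shRNA, a non-targeting hairpin that both comparisons share as their control. All cells were cultured without feeders in N2B27 medium with 2 kinase inhibitors and LIF, were exposed to hairpin lentivirus on 2 days and were then selected with puromycin for 3 days, so the controls also went through infection and selection. The labels call the libraries biological replicates of this 1 cell line, and p-values therefore measure the spread between cultures of that line.

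MAX is the obligate partner of the network. It pairs with the MYC proteins (MYC, MYCN and MYCL), which recruit histone acetyltransferases and raise transcription of growth genes, with the MXD proteins (MXI1 is one of them) and MNT, which recruit SIN3 and histone deacetylases and oppose MYC, and with MGA, which carries MAX into PRC1.6, a variant Polycomb complex that keeps germ cell genes silent in embryonic stem cells. MLX is another hub, which pairs with the glucose-responsive factors MLXIP (MondoA) and MLXIPL (ChREBP), and with MNT and some MXD proteins. The pairs bind the E-box, whose canonical form is CACGTG. MYC activity is known for its support of self-renewal in mESCs, where *Mycn* and *Myc* overlap in function.

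Some of the network's genes carry such a motif at their own start. RefSeq promoters (GRCm38.p6, 250 bases before to 50 bases after the start) were matched for 9 of the 10 genes, with 11 promoters in all because *Mxi1* has several, and both strands were searched. CACGTG, which is its own reverse complement, lay in the promoters of 3 members, *Max*, *Mlx* and *Mnt*, and in those of the network genes *Mxd4* and *Mlxipl*, against 7.15% of the 32851 RefSeq promoters of this length. The variant CACGCG, in either direction, lay in the promoters of *Mga* and *Mycl*, against 9.27% of all promoters. It cannot share all its bases with CACGTG. The windows of 30 bases around these motifs are printed on the strand of the gene, with the motif in capitals.
Max: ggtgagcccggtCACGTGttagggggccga
Mlx: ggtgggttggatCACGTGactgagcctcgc
Mnt: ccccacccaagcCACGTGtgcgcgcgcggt
Mxd4: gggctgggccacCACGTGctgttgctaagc
Mlxipl: gcggctgccatcCACGTGctaaggagagaa
Mga: agctggtaggagCGCGTGcgcagtgacgtg
Mycl: ccaagccccgggCACGCGacgagatataaa
The windows lie at chr12:76962234-76962263 for *Max* (minus strand, first base of the motif at -3 from the start), chr11:101087238-101087267 for *Mlx* (plus strand, -40), chr11:74830789-74830818 for *Mnt* (plus strand, -123), chr5:34187912-34187941 for *Mxd4* (minus strand, -219), chr5:135089780-135089809 for *Mlxipl* (plus strand, -98), chr2:119897195-119897224 for *Mga* (plus strand, -21) and chr4:122995899-122995928 for *Mycl* (plus strand, -20). Motif positions count from the RefSeq start. For some genes, *Max* and *Mycl* among them, this start differs from the gene bounds given below, which come from the GENCODE annotation used for counting. A match is a run of letters and was not tested for binding.

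Depth was between 19569525 and 29871048 counts per library, and 3 counts corresponded to 0.1004 to 0.1533 CPM of the library total before TMM scaling, which covers counting error only. All other CPM are TMM-normalized. *Eftud2* itself was at 255.7 to 262.3 CPM with nt-shRNA, 225.3 to 231.9 CPM with shRNA1 and 198.2 to 234.7 CPM with shRNA2, a log2 fold change of -0.18 (standard error 0.0678, adjusted p = 0.0514) and -0.29 (standard error 0.0678, adjusted p = 0.00122) in edgeR's quasi-likelihood test, so the labelled KD passed the threshold of 0.05 with shRNA2. The value with shRNA1 passed in 6 of 15 alternative fits, among them DESeq2 (-0.18, adjusted p = 0.0487) and those without shRNA2 replicate 2 (adjusted p = 0.0415) or shRNA2 replicate 3 (adjusted p = 0.0215). As percentages, the *Eftud2* changes in the counts were -11.7% with shRNA1 and -18.3% with shRNA2. The paper reports much larger decreases by qPCR, and less EFTUD2 protein on western blots, with both shRNAs. The cause of this gap was not tested. The 16 pluripotency markers examined, *Pou5f1*, *Sox2* and *Nanog* among them, were above 1 CPM on average in each group and summed to 8027.9 to 8767.9 CPM, and 7 of them were called higher and 4 lower with shRNA1 (43.8% and 25%, beside 13.8% and 17.1% of all genes), and 10 higher and 4 lower with shRNA2 (62.5% and 25%, beside 27.2% and 28.7%). Markers of other lineages were lower in sum. The 10 fibroblast or feeder genes, of which *Postn*, *Dcn*, *Lum* and *Col3a1* were below 1 CPM in each group, summed to 96.5 to 98.5 CPM with nt-shRNA, 68.6 to 75.6 CPM with shRNA1 and 84.2 to 99.1 CPM with shRNA2. Of the 6 that could be tested, 1 was higher and 1 lower with each shRNA. That was 16.7% each way, beside 13.8% and 17.1% of all genes with shRNA1 and 27.2% and 28.7% with shRNA2. With library size alone 3 were higher with shRNA1 and 2 with shRNA2. The 1 lower with shRNA2 was *Pdgfrb* (log2 fold change -0.74), and without shRNA2 replicate 2 there were 2 lower. Most of the sum was *Vim*, at 71.9 ± 0.161, 45.8 ± 3.95 and 70 ± 9.3 CPM (SD, n = 2, 3 and 3), which fell with shRNA1 (-0.65, adjusted p = 2.8e-05), while *Col1a2*, near 1 CPM, was higher with shRNA1 (1.27, adjusted p = 0.0103, and 0.148 without nt-shRNA replicate 1) and shRNA2 (1.66, adjusted p = 4.3e-04). These genes and the neural ones named next were picked after their values were seen. The 7 neural genes summed to 80.1 to 82.4, 69.9 to 79 and 60.5 to 70.8 CPM in the same order, with *Nes* at log2 fold changes of -0.45 (adjusted p = 0.00114) and -1.38 (adjusted p = 1.4e-09) and *Tubb3* at 0.62 (adjusted p = 0.0071, and 0.0919 without nt-shRNA replicate 2) and 1.58 (adjusted p = 1.2e-07). The 7 endoderm genes, with *Foxa2*, *Afp* and *Ttr* below 1 CPM, were at 21.2 to 21.4, 20 to 23.5 and 15.8 to 18.4 CPM, and the 7 mesoderm genes at 27.7 to 29.3, 28.1 to 30.4 and 26.9 to 33.4 CPM. The 7 measured markers of 2-cell-like cells, a rare state of mESC cultures, summed to 22 and 25.7 CPM with nt-shRNA, 94.7 to 122.9 CPM with shRNA1 and 79.3 to 99.3 CPM with shRNA2. The part of any of these markers in the results on the network was not tested, and in these bulk libraries fewer cells of a type and less RNA per cell cannot be told apart.

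Against nt-shRNA, 4 members were called with shRNA1 and 6 with shRNA2, in both directions. With shRNA1, 1 of the 10 members rose (*Mlxip*), where 13.8% of all genes tested were called higher, and 3 fell (*Max*, *Mxd3* and *Mga*), where 17.1% of all genes were called lower. With shRNA2, 2 rose (*Myc* and *Mycn*) beside 27.2% of all genes, and 4 fell (*Max*, *Mxd3*, *Mxi1* and *Mga*) beside 28.7%. In the direct comparison of shRNA2 with shRNA1, *Myc* and *Mycn* were higher and *Mxi1* was lower, beside 16.9% of all genes called higher and 18.7% called lower. These shares are near those of all genes, and with 10 members each gene is 10% of the set. Median log2 fold changes of the members were -0.10 with shRNA1 and -0.05 with shRNA2, and those of all genes were -0.01 and 0.00. The 3 members lowered by shRNA1 depended on the scaling: with library size alone, which moved the median of all genes to 0.11, none of them passed the threshold.

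**Figure D1:**
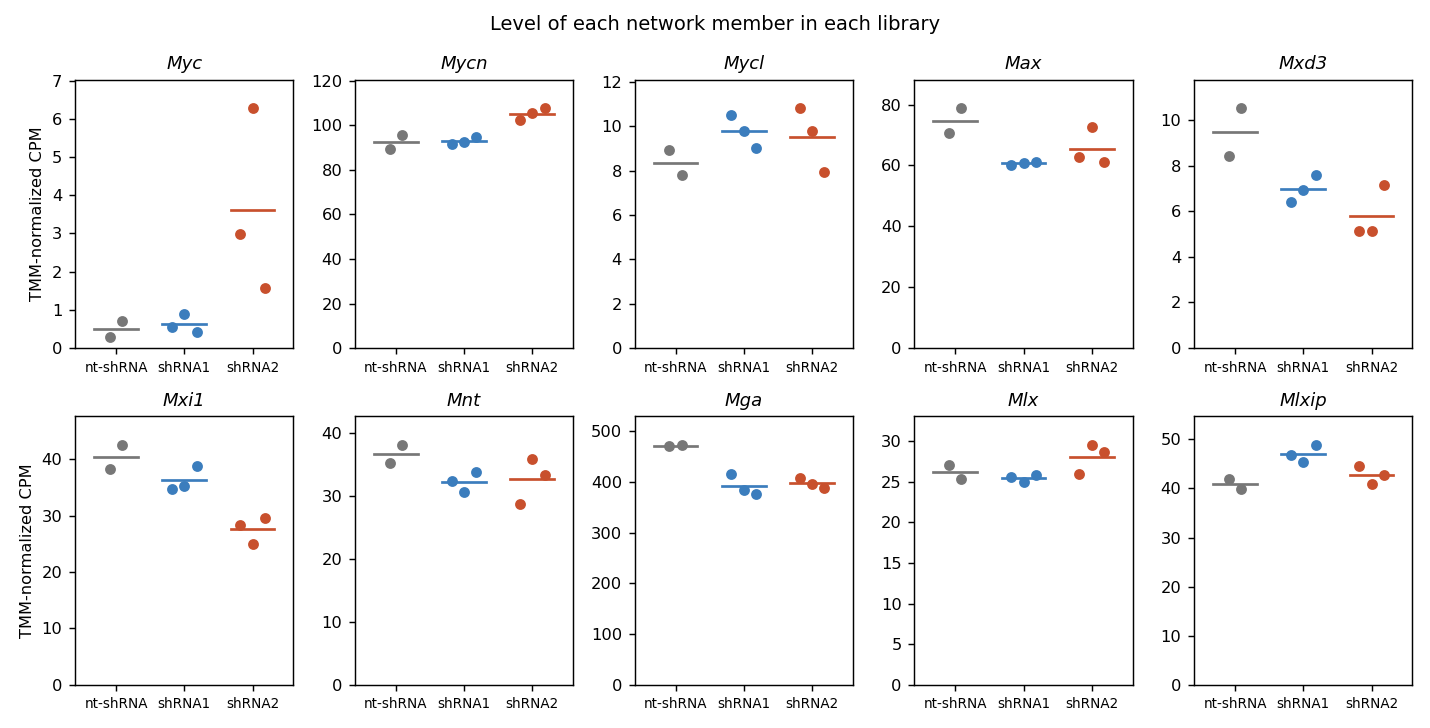
TMM-normalized CPM (y axis, from 0) of the 10 network members in each library, with 1 point per library and a line at the mean of the 2 nt-shRNA, 3 shRNA1 and 3 shRNA2 libraries. *Myc* with shRNA2 ranges from 1.56 to 6.27 CPM, above all 5 other libraries, and the KD libraries of *Mga* lie at 375.3 to 415.9 CPM, below the 470.4 and 472.3 CPM of the controls.

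*Max* (chromosome 12, 76937269 to 76962201, minus strand), the shared partner, was at 70.7 and 78.7 CPM with nt-shRNA, 60, 60.9 and 61.1 CPM with shRNA1, and 62.8, 72.7 and 61 CPM with shRNA2. All shRNA1 libraries lay below both controls, while shRNA2 replicate 2 fell between them. *Max* fell with shRNA1 by 0.30 on the log2 scale (standard error 0.0768, adjusted p = 0.00577). This call was lost without nt-shRNA replicate 2 (-0.22, adjusted p = 0.123) and with library size alone (-0.19, adjusted p = 0.0708). With shRNA2 the decrease was 0.19 on the log2 scale, a log2 fold change of -0.19 (standard error 0.0769, adjusted p = 0.0429), and this call did not hold in 9 of 15 alternative fits, among them library size alone (-0.10, adjusted p = 0.276) and those without shRNA2 replicate 1 (-0.15, adjusted p = 0.158), shRNA2 replicate 3 (-0.14, adjusted p = 0.149) or nt-shRNA replicate 2 (-0.11, adjusted p = 0.377). Between the shRNAs the difference was 0.11 (standard error 0.0702, adjusted p = 0.23).

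Among the MYC genes, *Myc* rose with shRNA2 and stayed a minor transcript. *Myc* (chromosome 15, 61985391 to 61990374, plus strand) was at 0.3 and 0.697 CPM with nt-shRNA (8 and 20 counts), 0.541, 0.888 and 0.428 CPM with shRNA1 (12, 18 and 12 counts), and 2.98, 6.27 and 1.56 CPM with shRNA2 (64, 139 and 34 counts). The shRNA2 libraries were all above the other 5, but the highest was 4.02 times the lowest, the widest spread within a group among the 10 members. The fitted change was 7.09-fold, a log2 fold change of 2.83 (standard error 0.487, adjusted p = 7.0e-05), and against shRNA1 it was 2.58 (standard error 0.426, adjusted p = 1.5e-04). Without shRNA2 replicate 2 these log2 values were 2.16 and 1.91, and without nt-shRNA replicate 2 the change against the controls was 3.56. Every one of these kept an adjusted p under the threshold, with 0.00312 the highest over the alternatives. *Myc* could not be tested under a minimum of 10 counts in every library. With shRNA1 the log2 fold change was 0.25 (standard error 0.637, adjusted p = 0.804). Over the alternatives this value ran from -0.21 to 0.99, so its sign is not settled.

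*Mycn* (chromosome 12, 12936093 to 12941914, minus strand) supplied most of the MYC family transcripts. Its level was 89.2 and 95.6 CPM with nt-shRNA, 91.7, 92.7 and 94.8 CPM with shRNA1, and 102.5, 105.4 and 107.6 CPM with shRNA2. The shRNA2 libraries were above the rest without overlap, and the shRNA1 libraries lay between the 2 controls. *Mycn* rose with shRNA2 by a log2 fold change of 0.19 (standard error 0.0613, adjusted p = 0.0144), and the change with shRNA1 was 0.01 (standard error 0.0612, adjusted p = 0.922). Relative to shRNA1 it was higher with shRNA2 by 0.18 (standard error 0.0549, adjusted p = 0.0173). The rise against the controls did not pass without nt-shRNA replicate 1 (0.13, adjusted p = 0.197) or without the filter on low counts (0.16, adjusted p = 0.073), and the difference between the shRNAs did not pass without that filter (0.16, adjusted p = 0.0688), shRNA1 replicate 1 (0.17, adjusted p = 0.0517) or shRNA1 replicate 2 (0.18, adjusted p = 0.0549).

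*Mycl* (chromosome 4, 122995652 to 123002485, plus strand) was at 8.92 and 7.8 CPM with nt-shRNA, 10.5, 9.77 and 9.02 CPM with shRNA1, and 10.8, 9.79 and 7.94 CPM with shRNA2. The shRNA1 libraries were all just above the controls and the shRNA2 libraries overlapped them. Its log2 fold changes were 0.22 (standard error 0.138, adjusted p = 0.238) and 0.19 (standard error 0.139, adjusted p = 0.263), and neither passed the test.

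Because MYC, MYCN and MYCL all pair with MAX, their transcripts were also added up per kilobase of exon. The sum was 30.3 ± 1.29 CPM per kb with nt-shRNA (SD, n = 2), 30.9 ± 0.271 with shRNA1 (SD, n = 3) and 35.6 ± 0.98 with shRNA2 (SD, n = 3). All shRNA2 libraries were above the others, a ratio of 1.18 to nt-shRNA (two-sided exact permutation p = 0.2, the smallest that 3 against 2 libraries allow) and of 1.15 to shRNA1 (exact permutation p = 0.1, the smallest that 3 against 3 allow). The ratio of shRNA1 to nt-shRNA was 1.02 (exact permutation p = 0.8). *Mycn* was 87.1% to 93% of this sum in every library, and *Myc* was 0.375% and 0.822% with nt-shRNA, 0.505% to 1.06% with shRNA1, and 3.14%, 6.28% and 1.63% with shRNA2.

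**Figure D2:**
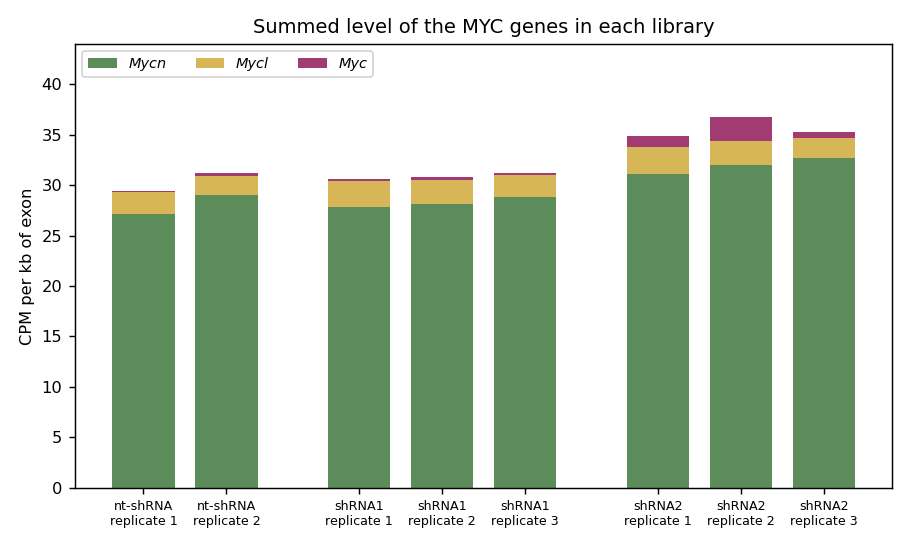
Stacked bars of the *Mycn*, *Mycl* and *Myc* level in each library, in CPM per kb of exon (y axis, from 0). *Mycn* fills at least 87.1% of every bar, and the 3 shRNA2 bars reach 34.9 to 36.7 against 29.4 to 31.2 in the other 5 libraries.

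Next to *Myc* on chromosome 15 lies *Pvt1*, a long noncoding RNA gene that shares a neighbourhood of enhancers with it. *Pvt1* was at 11.5 and 10.1 CPM with nt-shRNA, 9.56, 8.59 and 8.7 CPM with shRNA1, and 15.4, 15.6 and 11.3 CPM with shRNA2. It was higher with shRNA2 than with shRNA1 by a log2 fold change of 0.66 (standard error 0.124, adjusted p = 5.1e-04). Against nt-shRNA the change with shRNA2 was 0.38 (standard error 0.135, adjusted p = 0.0221), but 1 shRNA2 library lay within the range of the controls, and the call was lost without shRNA2 replicate 1 (0.31, adjusted p = 0.0929), shRNA2 replicate 2 (0.31, adjusted p = 0.0762) or nt-shRNA replicate 2 (0.28, adjusted p = 0.19). With shRNA1 the value was -0.28 (standard error 0.138, adjusted p = 0.139).

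The antagonists *Mxd3* and *Mxi1* fell. *Mxi1* (chromosome 19, 53310518 to 53375810, plus strand) was at 38.3 and 42.5 CPM with nt-shRNA, 34.8, 35.2 and 38.8 CPM with shRNA1, and 28.4, 24.9 and 29.6 CPM with shRNA2. The shRNA2 libraries stood below the other 5, and shRNA1 overlapped the controls. *Mxi1* fell with shRNA2 by 0.55 on the log2 scale (standard error 0.0874, adjusted p = 2.9e-05), and it was lower with shRNA2 than with shRNA1, a log2 fold change of -0.40 (standard error 0.0804, adjusted p = 9.2e-04). Both calls held in all 15 alternatives. With shRNA1 the change was -0.15 (standard error 0.0861, adjusted p = 0.186).

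*Mxd3* (chromosome 13, 55325168 to 55329823, minus strand), an MXD gene known from dividing cells, was at 8.43 and 10.5 CPM with nt-shRNA, 6.4, 6.91 and 7.59 CPM with shRNA1, and 5.12, 5.14 and 7.16 CPM with shRNA2. No KD library reached the controls. The log2 fold change with shRNA2 was -0.71 (standard error 0.158, adjusted p = 8.7e-04), and that with shRNA1 was -0.44 (standard error 0.154, adjusted p = 0.0373), which was lost in 6 of 15 alternatives, among them library size alone (-0.33, adjusted p = 0.123), DESeq2 (-0.44, adjusted p = 0.0591) and those without shRNA1 replicate 1 (-0.38, adjusted p = 0.127), shRNA1 replicate 2 (-0.43, adjusted p = 0.0924) or nt-shRNA replicate 2 (-0.27, adjusted p = 0.349). The shRNAs did not differ past the threshold (-0.27, standard error 0.15, adjusted p = 0.174), except without shRNA2 replicate 3 (-0.45, adjusted p = 0.026). *Mxd3* shares exonic bases with *Prelid1* on the opposite strand, and since the counting used no strand, its counts are uncertain.

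*Mnt* (chromosome 11, 74830920 to 74845725, plus strand), whose protein pairs with both MAX and MLX, was at 35.1 and 38 CPM with nt-shRNA, 32.3, 30.6 and 33.8 CPM with shRNA1, and 28.7, 35.8 and 33.3 CPM with shRNA2. The shRNA1 libraries were below the controls, and shRNA2 replicate 2 lay between them. Neither log2 fold change, -0.18 with shRNA1 (standard error 0.0895, adjusted p = 0.137) and -0.17 with shRNA2 (standard error 0.0898, adjusted p = 0.124), passed the test, although the latter did without shRNA2 replicate 2 (-0.23, adjusted p = 0.0344).

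The 2 remaining MXD genes moved in opposite directions with shRNA2. *Mxd1* was at 17.2 and 17.7 CPM with nt-shRNA, 14.1, 15.7 and 17.1 CPM with shRNA1, and 11.8, 11.4 and 12.9 CPM with shRNA2, and it fell with shRNA2 by 0.53 on the log2 scale (standard error 0.108, adjusted p = 3.6e-04). With shRNA1 its change of -0.15 (standard error 0.106, adjusted p = 0.29) did not pass the test. *Mxd4*, low in these cells, rose from 3.45 and 2.61 CPM to 5.91, 5.43 and 6.31 CPM with shRNA1 and to 7.02, 6.94 and 5.55 CPM with shRNA2. Its log2 fold changes of 0.96 (standard error 0.172, adjusted p = 3.2e-04) and 1.10 (standard error 0.172, adjusted p = 2.2e-05) were the largest of any network gene measured except that of *Myc* with shRNA2. Summed per kilobase, the 4 MXD genes and *Mnt* were at 19.6 and 21.7 CPM per kb with nt-shRNA, 17.5, 17.5 and 19.4 with shRNA1, and 15, 16 and 17 with shRNA2. Thus the ratio of MYC transcripts to those of their antagonists was 1.5 and 1.44 with nt-shRNA, 1.75, 1.76 and 1.61 with shRNA1, and 2.32, 2.3 and 2.07 with shRNA2. The 3 groups did not overlap in this ratio, which was chosen after earlier results were known and was not tested. The antagonist sum includes *Mxd3*, whose unstranded counts are uncertain.

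**Figure D3:**
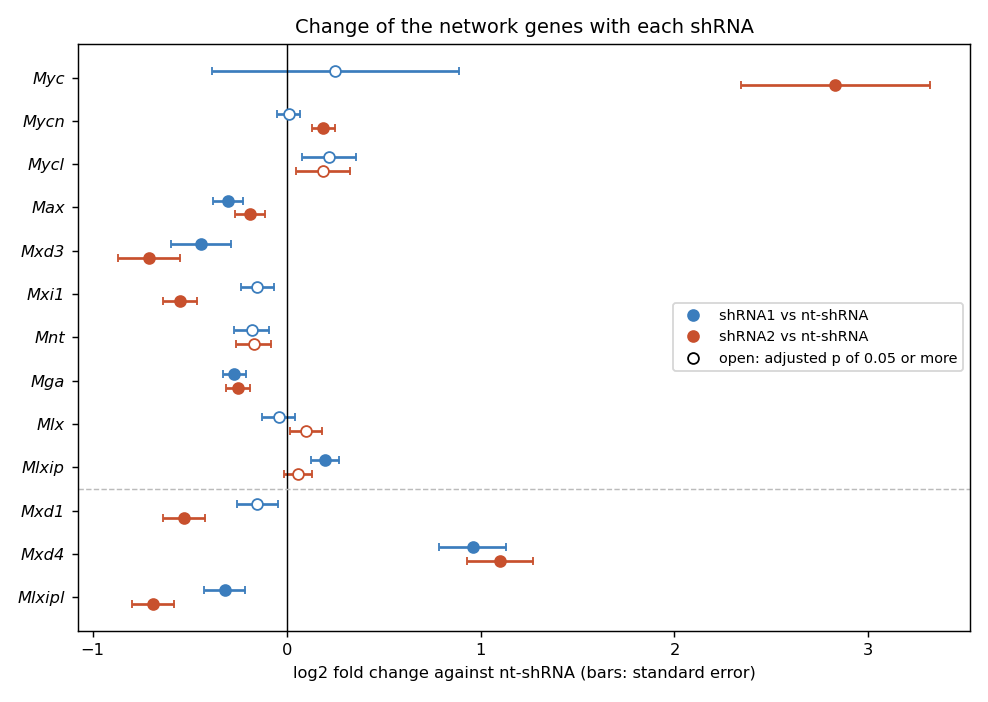
Log2 fold change against nt-shRNA (x axis, bars are standard errors) of the 10 members and, under the dashed line, the 3 other network genes, with filled points where the adjusted p was under 0.05. *Myc* with shRNA2 lies at 2.83, *Mxd4* at 0.96 and 1.10, and *Mga* at -0.27 and -0.25 with shRNA1 and shRNA2.

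*Mga* (chromosome 2, 119897228 to 119969581, plus strand) encodes the large scaffold that joins a MAX-binding domain and a T-box domain. It fell with both shRNAs. Its level was 470.4 and 472.3 CPM with nt-shRNA, 415.9, 384.7 and 375.3 CPM with shRNA1, and 406.7, 395.8 and 388.4 CPM with shRNA2. None of the 6 KD libraries reached the controls. On the log2 scale *Mga* changed by -0.27 under shRNA1 (standard error 0.0603, adjusted p = 0.00241) and by -0.25 under shRNA2 (standard error 0.0603, adjusted p = 0.00177), and the shRNAs differed by 0.02 (standard error 0.0544, adjusted p = 0.821). With library size alone these were -0.15 (adjusted p = 0.0531) and -0.16 (adjusted p = 0.0277).

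The count of other PRC1.6 subunits called with shRNA1 depended on the scaling. Of 14 partner genes, 1 rose (*Hdac1*) and none fell with shRNA1 (1 was lower at an unadjusted p under 0.05 in edgeR and 0 in DESeq2), where the median log2 fold change was 0.02, and 5 rose and 1 fell with shRNA2, where it was 0.07. As shares of the list these were 7.14% and 0% with shRNA1 and 35.7% and 7.14% with shRNA2, beside 13.8% and 17.1%, and 27.2% and 28.7%, of all genes. The 1 lower with shRNA2 became 2 without shRNA2 replicate 3. With library size alone 4 were higher with shRNA1, and in other settings the count was 0 to 2. The rise of *Hdac1* with shRNA1 (0.21, adjusted p = 0.0116) was not called without nt-shRNA replicate 1 (adjusted p = 0.119) or nt-shRNA replicate 2 (adjusted p = 0.0537). Close to the threshold with shRNA1 lay *E2f6* (0.19, adjusted p = 0.0592), which passed with library size alone (0.31, adjusted p = 0.0047) and in 6 other alternatives, and *Ring1* (-0.29, adjusted p = 0.0535), which passed in 4 alternatives, those without shRNA1 replicate 3, shRNA2 replicate 2 or nt-shRNA replicate 2 among them. *E2f6*, the E2F repressor of the complex, rose with shRNA2 from 40 ± 0.23 to 57.3 ± 3.25 CPM (SD, n = 2 and 3), a log2 fold change of 0.52 (standard error 0.0754, adjusted p = 1.0e-05). *Cbx1*, a heterochromatin protein gene, rose by 0.28 (standard error 0.0585, adjusted p = 5.5e-04), and *Ring1*, an E3 ligase subunit, changed by -0.47 (standard error 0.113, adjusted p = 0.00163), a call lost without nt-shRNA replicate 1 (-0.35, adjusted p = 0.0507).

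Germ cell and meiosis genes known as targets of MGA and PRC1.6 changed in both directions. Of 20 such genes, 14 rose and 3 fell with shRNA1 (median log2 fold change 0.50, against -0.01 for all genes), and 11 rose and 6 fell with shRNA2 (median 0.27, against 0.00). These were 70% and 15% of the list with shRNA1, beside 13.8% and 17.1% of all genes, and 55% and 30% with shRNA2, beside 27.2% and 28.7%. *Dazl*, an RNA-binding protein gene of germ cells, rose from 220.3 ± 4.62 CPM to 356.8 ± 27 CPM with shRNA1 and 368.4 ± 25.5 CPM with shRNA2 (SD, n = 2, 3 and 3), log2 fold changes of 0.70 (standard error 0.0725, adjusted p = 1.2e-06) and 0.74 (standard error 0.0726, adjusted p = 8.1e-08). *Sycp1*, of the synaptonemal complex, rose by 0.83 (adjusted p = 9.1e-06) and 0.66 (adjusted p = 2.7e-05). Against this, *Zcwpw1*, a histone reader of meiosis, fell with shRNA2 by 1.17 on the log2 scale (standard error 0.117, adjusted p = 1.0e-07), and *Smc1b*, a meiotic cohesin gene, fell by 1.27 (standard error 0.148, adjusted p = 7.6e-07). Compared directly, none of the 20 was higher with shRNA2 than with shRNA1 in edgeR's test (0 also at an unadjusted p under 0.05 and in DESeq2) and 10 were lower (median -0.27), with *Zcwpw1* at -0.73 (adjusted p = 6.2e-05) and *Smc1b* at -0.91 (adjusted p = 7.4e-05). These counts were 0% and 50% of the list, beside 16.9% of all genes called higher and 18.7% called lower. The 3 lower with shRNA1 became 1 with library size alone and 0 without nt-shRNA replicate 2. The 7 markers of 2-cell-like cells moved with the rise of these genes. All 7 rose with either shRNA (100%, beside 13.8% and 27.2% of all genes, median 2.44 and 2.20). Of these, 6 were lower with shRNA2 than with shRNA1 (85.7%, beside 18.7% of all genes), and 3 without shRNA1 replicate 2. The part of that state in the change of the germ cell genes was not tested.

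In the MLX arm, *Mlxip* rose slightly with shRNA1, its relative *Mlxipl* fell with both shRNAs, and *Mlx* did not pass the test. *Mlx* (chromosome 11, 101087277 to 101092207, plus strand) was at 27.1 and 25.3 CPM with nt-shRNA, 25.6, 25 and 25.8 CPM with shRNA1, and 26, 29.5 and 28.7 CPM with shRNA2. Its libraries overlapped between each shRNA and the controls, with log2 fold changes of -0.04 (standard error 0.0847, adjusted p = 0.77) and 0.10 (standard error 0.0846, adjusted p = 0.322). *Mlx* shares exonic bases with *Psmc3ip* on the opposite strand, so its unstranded counts are uncertain.

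*Mlxip* (chromosome 5, 123394798 to 123457932, plus strand) was at 41.9 and 39.9 CPM with nt-shRNA, 46.9, 45.4 and 48.8 CPM with shRNA1, and 44.5, 40.9 and 42.8 CPM with shRNA2. The shRNA1 libraries were above all others, and shRNA2 overlapped the controls. Its rise with shRNA1, a log2 fold change of 0.20 (standard error 0.0724, adjusted p = 0.0389), was lost in 7 of 15 alternatives, including those without shRNA1 replicate 1 (0.21, adjusted p = 0.0719), shRNA1 replicate 2 (0.23, adjusted p = 0.0603), shRNA1 replicate 3 (0.18, adjusted p = 0.0765), nt-shRNA replicate 1 (0.24, adjusted p = 0.102) or nt-shRNA replicate 2 (0.17, adjusted p = 0.245). With shRNA2 it was 0.06 (standard error 0.0728, adjusted p = 0.479). *Mlxipl*, the ChREBP gene, fell from 23.9 and 22.8 CPM to 14.4, 12.5 and 16.5 CPM with shRNA2, a log2 fold change of -0.69 (standard error 0.109, adjusted p = 2.9e-05). With shRNA1 it was at 18.4, 17.4 and 20 CPM (-0.32, standard error 0.107, adjusted p = 0.0276), a call lost with library size alone (-0.21, adjusted p = 0.149) and without shRNA1 replicate 1 (-0.31, adjusted p = 0.0754), shRNA1 replicate 2 (-0.28, adjusted p = 0.112), nt-shRNA replicate 1 (-0.29, adjusted p = 0.174) or nt-shRNA replicate 2 (-0.36, adjusted p = 0.0766).

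Glucose-responsive targets of MLX with MLXIP or MLXIPL were examined next. Of 16 genes, none rose in edgeR's test (0 also at an unadjusted p under 0.05 and in DESeq2) and 5 fell with shRNA1 (median log2 fold change -0.14), and 1 rose and 9 fell with shRNA2 (median -0.47). The shares lower were 31.2% and 56.2%, beside 17.1% and 28.7% of all genes, and the shares higher were 0% and 6.25%, beside 13.8% and 27.2%. In the comparison of shRNA2 with shRNA1, 7 were lower and none higher in edgeR's test (median -0.29). These were 43.8% and 0% of the list, beside 18.7% and 16.9% of all genes. By edgeR at an unadjusted p under 0.05 or by DESeq2, 0 were higher, and 1 was higher (*Arrdc3*) without shRNA2 replicate 3. *Pfkfb3*, which makes the activator of phosphofructokinase, fell from 51 ± 1.52 CPM to 31.3 ± 2.47 CPM with shRNA1 and 19.1 ± 2.38 CPM with shRNA2 (SD, n = 2, 3 and 3), log2 fold changes of -0.70 (standard error 0.0909, adjusted p = 1.3e-05) and -1.41 (standard error 0.0941, adjusted p = 7.2e-10). *Tkfc*, a fructose-metabolizing kinase gene, fell likewise, by log2 fold changes of -0.54 (adjusted p = 1.6e-04) and -1.04 (adjusted p = 2.3e-08). The list includes glycolysis genes, *Hk2* and *Pfkfb3*, and the paper reports a broad decrease of glycolytic transcripts with both shRNAs. The part of that decrease in the counts of this list was not tested. The 1 gene higher with shRNA2 was the arrestin family gene *Arrdc3* (0.30, standard error 0.112, adjusted p = 0.0275), and it was not called by DESeq2 (0.30, adjusted p = 0.204) or without shRNA2 replicate 2 (0.17, adjusted p = 0.154) or nt-shRNA replicate 1 (0.12, adjusted p = 0.474). *Txnip* and *Arrdc4*, which are often read as reporters of MondoA and were picked here after their values were seen, were at log2 fold changes of 0.08 (adjusted p = 0.526) and -0.08 (adjusted p = 0.343) with shRNA1 and of -0.70 (adjusted p = 8.5e-07) and -0.54 (adjusted p = 7.8e-07) with shRNA2.

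Textbook targets that MYC activates were called in both directions. Of 46 measured genes of growth, nucleolar function and metabolism, 6 rose and 10 fell with shRNA1 (median log2 fold change -0.04), and 22 rose and 8 fell with shRNA2 (median 0.15). The shares with shRNA1, 13% and 21.7%, were near the 13.8% and 17.1% of all genes, and those with shRNA2 were 47.8% and 17.4%, beside 27.2% and 28.7%. With library size alone the counts for shRNA1 turned to 14 higher and 6 lower, and without nt-shRNA replicate 2 the 6 that rose were 2. *Ddx21*, a nucleolar helicase gene, rose from 389.0 ± 21.1 CPM to 516.0 ± 27.7 and 641.5 ± 17.5 CPM (SD, n = 2, 3 and 3), log2 fold changes of 0.41 (adjusted p = 9.5e-05) with shRNA1 and 0.72 (adjusted p = 2.7e-08) with shRNA2. *Rrp12*, which serves ribosomal RNA processing and export, rose by 0.26 (adjusted p = 0.0118, and 0.192 without nt-shRNA replicate 2) and 0.73 (adjusted p = 1.2e-07). Other genes of the list went down. *Ldha*, which encodes lactate dehydrogenase, fell with log2 fold changes of -0.71 (adjusted p = 3.2e-06) and -1.27 (adjusted p = 3.8e-10), and *Tfrc*, the transferrin receptor gene, with -1.22 (adjusted p = 6.3e-08) and -1.41 (adjusted p = 1.0e-09). Relative to shRNA1, 27 of the 46 were higher and 2 lower with shRNA2 (median 0.18). These were 58.7% and 4.35% of the list, beside 16.9% and 18.7% of all genes. The 2 became 5 with library size alone, 6 with no filter and 4 without shRNA1 replicate 2. Without shRNA1 replicate 3 or shRNA2 replicate 2 they became 1.

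Of 16 genes that MYC is known to repress, 1 rose and 6 fell with shRNA1 (median log2 fold change -0.13), and 1 rose and 12 fell with shRNA2 (median -0.75). Lower calls were 37.5% and 75% of the list, beside 17.1% and 28.7% of all genes, and higher calls 6.25% with either shRNA, beside 13.8% and 27.2%. Relative to shRNA1, 10 were lower and 1 higher with shRNA2 (median -0.54). That was 62.5% and 6.25% of the list, beside 18.7% and 16.9% of all genes. This list shares *Pdgfrb* and *Col1a1* with the fibroblast or feeder markers and *Gata6* with the endoderm markers. *Pdgfrb* (-0.74) and *Gata6* (-0.75) were among the lower calls with shRNA2. *Ndrg1*, a growth-arrest and hypoxia gene, fell from 50.3 ± 3.27 CPM to 19.8 ± 4.17 CPM and 7.73 ± 1.43 CPM (SD, n = 2, 3 and 3), log2 fold changes of -1.34 (standard error 0.129, adjusted p = 4.8e-07) with shRNA1 and -2.70 (standard error 0.142, adjusted p = 5.6e-11) with shRNA2. *Gadd45b*, a stress-response gene, fell as well, with -0.94 (adjusted p = 4.5e-06) and -1.73 (adjusted p = 5.9e-10). *Btg2*, an antiproliferative gene that p53 activates, went the other way, by 0.32 (standard error 0.0777, adjusted p = 0.00425) and 0.86 (standard error 0.0781, adjusted p = 3.3e-08), and its rise with shRNA1 was not called without nt-shRNA replicate 2 (0.23, adjusted p = 0.107). The cyclin-dependent kinase inhibitor gene *Cdkn1a*, picked after its values were seen, was at -0.07 (adjusted p = 0.525) and -0.05 (adjusted p = 0.585).

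**Figure D4:**
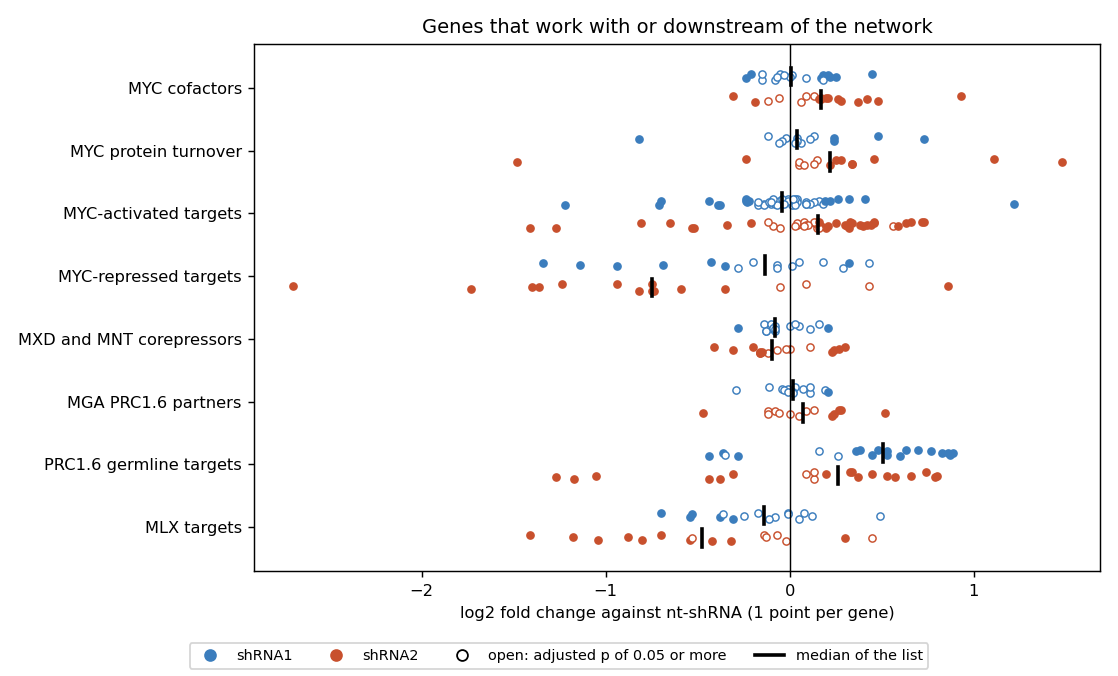
Log2 fold change against nt-shRNA (x axis) of each gene of 8 lists around the network, with 1 point per gene for shRNA1 and shRNA2, filled where the adjusted p was under 0.05, and a black line at the median of the list. The MYC-repressed list has the lowest median with shRNA2 (-0.75), and the germ cell targets of PRC1.6 have the highest with shRNA1 (0.50).

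Of 18 genes that act with MYC proteins as cofactors, 6 rose and 2 fell with shRNA1 (33.3% and 11.1%, beside 13.8% and 17.1% of all genes, with a median log2 fold change of 0.00), and 11 rose and 2 fell with shRNA2 (61.1% and 11.1%, beside 27.2% and 28.7%, with a median of 0.17). With shRNA1 the counts were 2 higher and 0 lower without nt-shRNA replicate 1. The 6 also became 3 without shRNA1 replicate 2 and 3 without nt-shRNA replicate 2, and the 11 became 7 without nt-shRNA replicate 2. The 2 lower calls with shRNA1 were *Kat5* (-0.21, adjusted p = 0.0445) and *Ruvbl2* (-0.24, adjusted p = 0.0168), subunits of a histone acetyltransferase complex. *Kat5* lost its call in 12 of 15 alternatives, the omission of any shRNA1 or nt-shRNA library or of shRNA2 replicate 1 among them, and *Ruvbl2* lost it with library size alone and without shRNA1 replicate 1, shRNA1 replicate 2 or nt-shRNA replicate 1. *Crebbp*, a histone acetyltransferase gene, rose from 49 ± 1.78 CPM to 67.2 ± 5.56 CPM and 93.6 ± 9.2 CPM (SD, n = 2, 3 and 3), log2 fold changes of 0.45 (standard error 0.0845, adjusted p = 4.6e-04) and 0.93 (standard error 0.0847, adjusted p = 3.2e-08). *Hcfc1*, which binds MYC and chromatin modifiers, rose by 0.17 (adjusted p = 0.0286) and 0.48 (adjusted p = 1.2e-06), the former not called without shRNA1 replicate 2 (adjusted p = 0.0734), nt-shRNA replicate 1 (adjusted p = 0.162) or nt-shRNA replicate 2 (adjusted p = 0.119). The 2 genes lower with shRNA2 were *Trrap*, the acetyltransferase scaffold that MYC recruits (-0.31, adjusted p = 3.5e-04), and *Cdk9*, the kinase of elongation factor P-TEFb (-0.19, adjusted p = 0.0184), and the latter was not called with library size alone (-0.10, adjusted p = 0.199) or without shRNA2 replicate 1 (-0.15, adjusted p = 0.105) or nt-shRNA replicate 1 (-0.17, adjusted p = 0.13).

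Enzymes that set the stability of MYC proteins held some of the largest changes around the network, the ligase gene *Fbxw7* rising and the deubiquitinase gene *Usp28* falling with each shRNA. The list mixes genes that lower with genes that raise MYC stability, so its counts give no direction for stability. Of 15 genes, 4 rose and 1 fell with shRNA1 (median log2 fold change 0.04), and 8 rose and 2 fell with shRNA2 (median 0.22). These were 26.7% and 6.67% of the list with shRNA1, beside 13.8% and 17.1% of all genes, and 53.3% and 13.3% with shRNA2, beside 27.2% and 28.7%. The 4 became 7 with library size alone and 2 without shRNA1 replicate 2 or nt-shRNA replicate 2. *Fbxw7*, the ubiquitin ligase subunit that marks phosphorylated MYC proteins for decay, rose from 26.7 ± 0.864 CPM to 44.5 ± 1.54 CPM with shRNA1 and 74.5 ± 11.8 CPM with shRNA2 (SD, n = 2, 3 and 3), log2 fold changes of 0.73 (standard error 0.103, adjusted p = 3.2e-05) and 1.48 (standard error 0.103, adjusted p = 1.3e-09). *Usp28*, the deubiquitinase known to oppose it, fell from 236.3 ± 6.49 CPM to 133.4 ± 9.64 CPM and 85 ± 7.14 CPM, log2 fold changes of -0.82 (standard error 0.0714, adjusted p = 1.6e-07) and -1.48 (standard error 0.0723, adjusted p = 3.6e-11). For either gene no library of 1 group overlapped another group. *Stub1*, a chaperone-linked ligase gene, was at -0.24 with shRNA2 (standard error 0.0783, adjusted p = 0.0153), a call lost with library size alone (-0.15, adjusted p = 0.113) and without shRNA2 replicate 1 (-0.21, adjusted p = 0.0661) or nt-shRNA replicate 1 (-0.15, adjusted p = 0.222). MYC protein was not measured in these files.

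Corepressor genes used by MXD proteins and MNT shifted by small amounts. Of 16 tested genes, 1 rose (*Hdac1*) and 1 fell with shRNA1 (median log2 fold change -0.08), and 4 rose and 7 fell with shRNA2 (median -0.10). The shares were 6.25% in each direction with shRNA1, below the 13.8% and 17.1% of all genes, and 25% and 43.8% with shRNA2, beside 27.2% and 28.7%. With library size alone the shRNA1 counts were 4 higher and 0 lower and the shRNA2 counts 5 higher and 2 lower. Without shRNA1 replicate 3, 3 were lower with shRNA1. The 7 lower with shRNA2 also became 4 with at least 10 counts in every library, 2 without shRNA2 replicate 1 and 3 without either nt-shRNA replicate. *Ing2* fell with shRNA2 by 0.41 (standard error 0.0824, adjusted p = 3.2e-04), while *Ncor1* rose by 0.27 (standard error 0.0576, adjusted p = 5.8e-04) and *Hdac1* by 0.24 (standard error 0.0598, adjusted p = 0.00213). Both of the TMM calls with shRNA1 were lost without nt-shRNA replicate 1, and that of *Hdac1* also without nt-shRNA replicate 2.

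Set side by side per kilobase of exon, the network's transcripts covered a wide range of levels. With nt-shRNA the order of mean levels was *Mga* (30.7 CPM per kb), *Mycn* (28.1), *Max* (20.8), *Mlx* (13.1), *Mnt* (7.9), *Mxi1* (5.92), *Mlxip* (4.91), *Mlxipl* (4.21), *Mxd3* (3.99), *Mxd1* (2.47), *Mycl* (2.07), *Mxd4* (0.357) and *Myc* (0.183), and the libraries of neighbours in this order did not overlap except those of *Mlxipl* and *Mxd3*. With shRNA1, *Mycn* (28.2) stood above *Mga* (25.6), *Mlxip* (5.65) was above *Mxi1* (5.32) with overlapping libraries, *Mlxipl* (3.36) overlapped *Mxd3* (2.94), and *Mycl* (2.42) overlapped *Mxd1* (2.21). With shRNA2, *Mycn* (31.9) again led *Mga* (25.9), and *Mxd3* (2.45) overlapped *Mlxipl* (2.61) and *Mycl* (2.36). The mean of *Myc* (1.33) was above that of *Mxd4* (0.767), but its libraries ran from 0.574 to 2.31 and overlapped those of *Mxd4*, *Mxd1* (1.7), *Mycl*, *Mxd3* and *Mlxipl*, so its place among these is not settled. The ratio of the MYC sum to *Max* was 1.5 and 1.43 with nt-shRNA, 1.84, 1.83 and 1.83 with shRNA1, and 2, 1.82 and 2.08 with shRNA2.

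**Figure D5:**
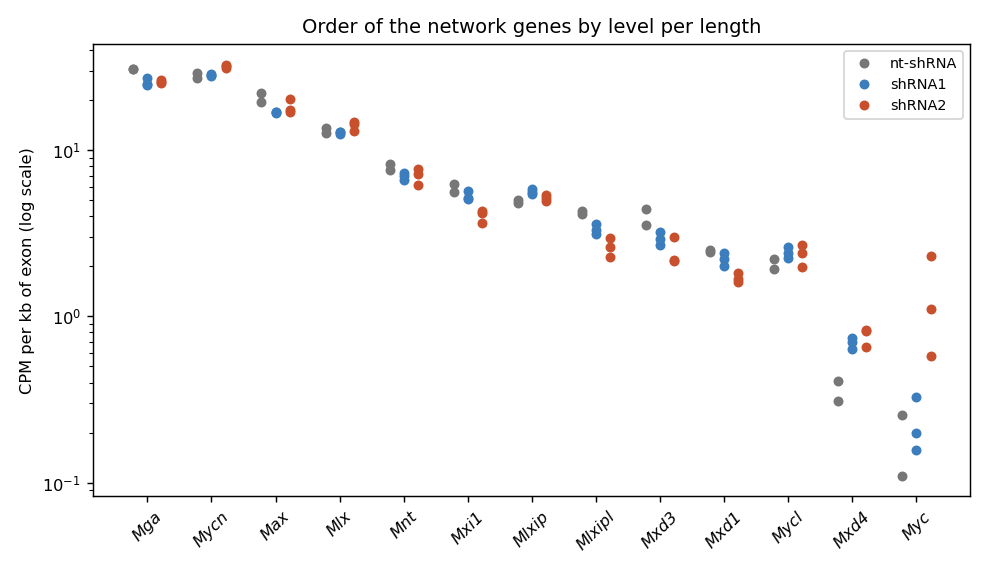
Level of 13 network genes in each library in CPM per kb of exon (y axis, log scale), ordered by the nt-shRNA mean, with 1 point per library. *Mga*, *Mycn* and *Max* lead with nt-shRNA means of 30.7, 28.1 and 20.8, and *Myc* is lowest with nt-shRNA at 0.11 and 0.256.

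The genes whose pattern over the 8 libraries was most like that of a member are given as a description only, since all libraries share 1 scaling and 3 groups. For *Myc* they were *Lonrf2* (Pearson's r of log2 CPM 0.988), *Prss56* (0.987) and *Gabpb2* (0.986), of which the last went from 85.6 CPM in both other groups to 106.2 CPM with shRNA2. *Mycn* was matched by *Rnf26* (0.986), *Dlx4* (0.974) and *Ick* (0.966), and *Mycl* by *Zscan21* (0.947), *Lhfpl2* (0.919) and *Igll1* (0.908). Of these matches, *Prss56*, *Dlx4* and *Igll1* averaged below 1 CPM in each group, so their r values rest on few counts. The closest to *Mga* were *Sec61g* (0.983), *Ssr3* (0.976) and *Glo1* (0.972), and *Sec61g* was at 99.6 CPM with nt-shRNA, 72.5 CPM with shRNA1 and 73.4 CPM with shRNA2.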

How the data were processed

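RNA-seq of R1 mESCs gave 8 libraries (3 shRNA1, 3 shRNA2, 2 nt-shRNA). The authors aligned 100 bp paired reads to GRCm38 with STAR and counted fragments on GENCODE M24 exons with featureCounts 1.6.2 (per the file headers) without strand, and the deposited values are raw counts for 55385 genes with exonic lengths. Symbols for 55144 genes came from GENCODE M21. No per-sample column was left out.

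Tests were run with edgeR 4.0.16 in R 4.3.3 (filterByExpr, TMM, glmQLFit and glmQLFTest, with a coefficient per group over all 8 libraries and no block), and 17445 genes were tested and adjusted together by Benjamini-Hochberg. Genes with an adjusted p under 0.05 were called, and standard errors came from the F statistic. The code was first tested on simulated data. CPM are TMM-normalized, and levels of different genes were compared only per kb of exon. Sums of the MYC genes were compared by exact permutation over libraries (two-sided, Python 3.11.15). DESeq2 1.42.0, the tool the authors used, other scalings and filters, the replicate number as a block and the omission of each library were alternatives. The members and lists were chosen with earlier results of these data known, and no list was given a set test. Genes named from a list were the 2 with the smallest adjusted p in each direction with shRNA2, except for some that are not reported here, and other list genes were chosen after their values were seen. Motifs were searched in RefSeq promoters of GRCm38.p6. Depth was 19569525 to 29871048 counts, and the chi-square per gene between libraries of a group was at least 3.12, so no library repeated another. Splicing was not analysed here.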

Additional observations from a re-analysis of the deposited data

Results flagged for a closer look

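Of the 10 members, 3 responded differently to the 2 shRNAs, by the direct edgeR comparison of shRNA2 with shRNA1, in which 2 were higher and 1 lower with shRNA2, beside 16.9% of all genes called higher and 18.7% called lower, so the count is near that of all genes. The effect of shRNA2 exceeded that of shRNA1 by 2.58 on the log2 scale for *Myc* (adjusted p = 1.5e-04, higher in 3 of 3 shRNA2 libraries than in any shRNA1 library) and by 0.18 for *Mycn* (adjusted p = 0.0173, likewise in 3 of 3). For *Mxi1* the difference was -0.40 (adjusted p = 9.2e-04), with 3 of 3 shRNA2 libraries below all shRNA1 libraries. No group here has the 4 samples needed to look for a single sample far from the others.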

How the results depend on the processing

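Over the alternatives, the 30 log2 fold changes of the members gave 447 values, of which 415 kept their direction where called and their side of the threshold, 30 no longer passed it, 2 newly passed it and 0 changed sign in a called result. The number of members higher with shRNA1 (1) was 0 with DESeq2 or with no filter, and 0 to 1 when each library was left out. The number lower with shRNA1 (3) was 0 with library size alone and 1 to 3 with a library left out. The 2 members higher with shRNA2 were 1 with no filter or with at least 10 counts in every library (where *Myc* could not be tested, nor could *Col1a2*), and 1 to 2 with a library left out, as were the 2 higher with shRNA2 than with shRNA1, for the same settings. The 1 member lower with shRNA2 than with shRNA1 was 1 to 2 with a library left out. The log2 ratio of the MYC sum between shRNA1 and nt-shRNA (0.03) was -0.02 without nt-shRNA replicate 1 and otherwise at most 0.07. Library size alone moved the median of all genes to 0.11 with shRNA1 and 0.09 with shRNA2, and with it 4101 genes were higher and 1713 lower with shRNA1, and 5850 higher and 4077 lower with shRNA2 (2407 and 2981, and 4748 and 5010, with TMM). For *Eftud2* and the list and marker genes named with a test, added to these alternatives after seeing the data, 1674 of 1752 values kept their side of the threshold. The cause of these changes was not tested. Same-numbered libraries did not deviate together (correlations -0.03 to 0.07 over 7 pairs), so the numbers were not taken as pairs. With the replicate block, 1 member was higher and 3 lower with shRNA1, 2 higher and 4 lower with shRNA2, and 2 higher and 1 lower with shRNA2 than with shRNA1, *Myc* was at 3.15 with shRNA2, and the MLX target *Arrdc3* was called higher with shRNA1 (0.19, adjusted p = 0.0336) and with shRNA2 over shRNA1 (0.18, adjusted p = 0.0205). The block also changed calls with shRNA1 for *Eftud2* (-0.21, adjusted p = 0.0206), *Ring1* (-0.36, adjusted p = 0.0186), *Trrap* (-0.18, adjusted p = 0.0333), *Cdk9* (-0.19, adjusted p = 0.0219), *E2f6* (0.24, adjusted p = 0.0135) and *Smc1b* (-0.42, adjusted p = 0.03), which passed, and *Kat5* (-0.18, adjusted p = 0.0777), which did not. The 2 control libraries limit the comparisons with nt-shRNA, and the low counts of *Myc* limit the size of its change.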
